A study of Arabidopsis thaliana with 7 samples.

Results

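The 8 genes that encode the conventional actins of Arabidopsis thaliana were followed in isolated embryos of wild type and of the bodenlos (bdl) mutant. They are ACT1 (probe set AT2G37620_at), ACT2 (AT3G18780_at), ACT3 (AT3G53750_at), ACT4 (AT5G59370_at), ACT7 (AT5G09810_at), ACT8 (AT1G49240_at), ACT11 (AT3G12110_at) and ACT12 (AT3G46520_at). They were chosen by probe set identifier, 1 probe set per locus, out of 27826 probe sets on the array, and all 8 symbols matched a RefSeq gene table. RNA of about 40 to 50 embryos of the 8-cell stage was hybridised to each of 7 one-colour arrays. The series' design text counts 3 replicates for each genotype, while the labels give 4 for wild type. Every array entered the comparison. Wild type was represented by 4 arrays of Columbia (Col-0) embryos and bdl by 3 arrays of embryos of the same ecotype that carry a mutation in BODENLOS, which is IAA12. BODENLOS is an Aux/IAA repressor of the auxin response. The mutant allele and the zygosity of the embryos are not in the labels. All groups share the growth protocol, which mentions antibiotic selection. Whether the embryos used here held a transgene is not in the labels, so the signal of IAA12 may include an added copy.

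Actin monomers assemble into filaments that carry myosin-driven transport, guide vesicles to the growing wall and take part in placing the plane of division in plant cells. The Arabidopsis family is divided by its known sites of use. ACT2, ACT7 and ACT8 are the vegetative actins, active in leaves, roots and stems, and ACT7 is known to respond to auxin. ACT1, ACT3, ACT4, ACT11 and ACT12 are the reproductive actins, most of them used in pollen, and ACT11 also in ovules and embryos. ACT2 and ACT8, ACT1 and ACT3, and ACT4 and ACT12 are close sister pairs. The proteins and coding regions of the family are very alike, and the probe definition is not given in the sources used here, so the signal of 1 member can hold some signal of another. Vegetative actins are often used as reference genes in plant expression studies.

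The array medians lay between 8.44 and 9.37 on the linear intensity scale. The intensity of IAA12 was 135 to 167 in wild type but 432 to 477 in bdl, with a log2 difference of 1.59 ± 0.17 (SE; limma, adjusted p = 0.00287). The mean over 6 early embryo marker genes was 8.54 to 8.92 (log2) over the wild-type arrays and 8.27 to 8.39 over the bdl arrays. This gap was not shared evenly by the 6. ESR1, at -1.99 (limma, adjusted p = 0.00657), was the 1 gene called. HB-3 differed by -0.82, ATML1 by -0.19, WOX2 by -0.165 and WOX8 by -0.02, while LEC1 differed by 0.68. The genotypes had no overlap for 3 of the 6, ESR1, HB-3 and LEC1. All 6 lay above the 50th percentile of all genes. WOX2, an embryo homeobox gene, had geometric mean intensities of 1115 and 995. Among markers of tissues that can be carried along, 6 of 8 endosperm genes lay under the 25th percentile. SUC5, a sucrose transporter gene of the endosperm, was the only 1 of the 8 above the 50th percentile. SUC5 had intensities of 176 to 320 over the wild-type arrays and 86.5 to 185 over the bdl arrays. Its log2 difference was -0.93 (limma, adjusted p = 0.352). None of the 8 endosperm and none of 12 seed coat genes was called. At an unadjusted p under 0.05 (limma) there were 1 and 3. The genotypes had no overlap for 3 of the 12 seed coat genes, TT1 (0.77), TT2 (-1.40) and STK (-1.72), named after their values were seen. Of all 27826 genes, 1.76% were called, 2978 had an unadjusted p under 0.05 (limma) and 11.2% had no overlap. TT4, chosen as the seed coat gene with the highest mean, had a log2 difference of -0.73. The seed coat mean was 2.96 to 3.67 in wild type, 3.04 and 3.32 in bdl replicates 2 and 1, and 2.25 in bdl replicate 3. The mean of 20 pollen genes reached 5.08 in wild type replicate 4, while replicates 1 to 3 had 1.99 to 3.31 and the bdl arrays 1.95 to 3.59. In these bulk samples, fewer cells of a type and less RNA per cell cannot be told apart. Nothing in the labels says that replicates came from separate harvests, so the p-values reflect the spread between these arrays alone, which may be technical. Detection calls were not used here, and the level of background is unknown.

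No actin gene passed the test between genotypes. The threshold for a call was an adjusted p under 0.05 by limma, with Benjamini-Hochberg adjustment over all 27826 genes. On these arrays 1.76% of all genes were called, 0.902% higher and 0.859% lower in bdl, and 0 of the 8 actin genes were. The count of actin genes at an unadjusted p under 0.05 (limma) was also 0, beside 2978 of all 27826 genes. The smallest unadjusted p of an actin gene was 0.102 (limma, ACT11). The wild-type and bdl arrays overlapped for all 8 actin genes, where they did not overlap for 11.2% of all genes. The log2 differences of the actin genes ran from -0.59 to 0.51 with a median of -0.10, 3 positive and 5 negative, beside a median of -0.01 over all genes. A p that misses the threshold does not show equal levels, and the interval of each difference is therefore given with it.

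**Figure D1:**
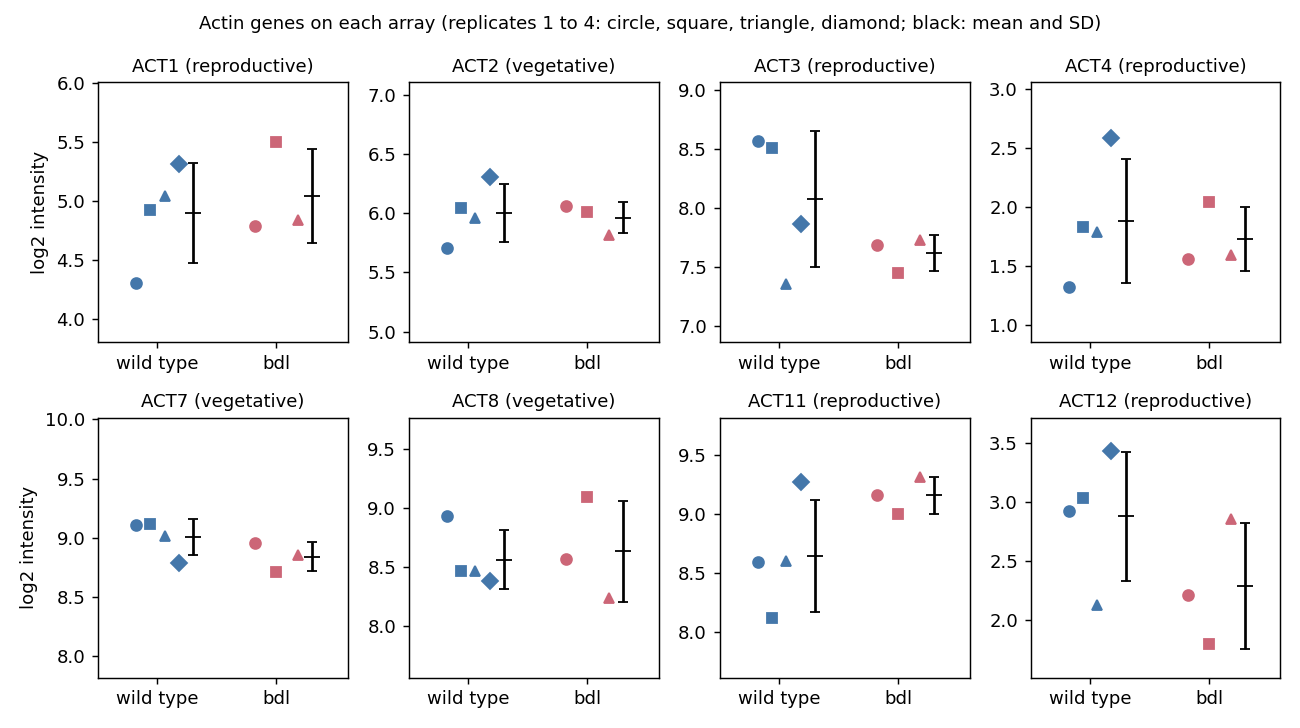
Log2 intensity of each of the 8 actin genes on the 4 wild-type arrays (blue) and the 3 bdl arrays (red), with symbols for replicate number and the mean ± SD in black; each panel spans the same number of log2 units around its own gene. The genotypes overlap in all 8 panels, the ACT7 arrays lie within 0.41 log2 units, and wild type replicate 4 (diamond) is the highest array for ACT2, ACT4 and ACT12.

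Among the vegetative actins, ACT7 had the narrowest range. Its intensity was 551, 555, 517 and 441 in wild type replicates 1 to 4 and 497, 419 and 462 in bdl replicates 1 to 3. The lowest array was bdl 2 and the highest wild type 2, and wild type 4 lay between bdl 2 and bdl 3. The geometric mean was 514 in wild type and 458 in bdl. The log2 difference was -0.17 ± 0.18 (SE; 4 against 3 arrays; 95% interval -0.58 to 0.24; limma, adjusted p = 0.826). The within-genotype SD of ACT7 was 0.14 on the log2 scale, smaller than that of all but 5.87% of genes and all but 8.88% of the 6957 genes with the highest means.

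ACT2, which supplies actin to most vegetative tissues and is known for its part in root hair growth, was also steady. The ACT2 intensity was 52.3, 65.9, 62.2 and 79.3 in the wild-type arrays and 66.7, 64.7 and 56.3 in the bdl arrays. All 3 bdl values fell between the lowest and the highest wild-type value. The log2 difference was -0.04 ± 0.20 (SE; 95% interval -0.50 to 0.42; limma, adjusted p = 0.969), with a within-genotype SD of 0.21. The sign of so small a difference turned with the processing, to 0.06 without wild type replicate 4.

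ACT8, the sister gene of ACT2, varied more from array to array. Its intensity was 488, 355, 355 and 334 in wild type and 381, 546 and 303 in bdl. Wild type 1 and bdl 2 were the high arrays, 1 in each genotype, and bdl 3 was the lowest of all. The log2 difference was 0.07 ± 0.25 (SE; 95% interval -0.51 to 0.66; limma, adjusted p = 0.955). Without bdl replicate 2 it was -0.16, again not called.

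ACT11, the reproductive actin known from ovules and embryos, had the greatest positive difference of the family. Its intensity was 387, 278, 390.5 and 618 in the wild-type arrays and 572, 513 and 637 in the bdl arrays. All 3 bdl arrays lay above wild type replicates 1 to 3, while wild type 4 exceeded bdl 1 and bdl 2, so the genotypes overlapped through 1 array. The geometric means were 401 for wild type and 572 for bdl, a fold of 1.42. The log2 difference was 0.51 ± 0.28 (SE; 95% interval -0.13 to 1.15; limma, adjusted p = 0.594). Without wild type replicate 4 it was 0.72 and still not called (limma, adjusted p = 0.274), and the lowest value on leaving out 1 array was 0.33.

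The difference between the log2 values of ACT7 and ACT11 on the same array does not depend on the scaling of the arrays. Its size and sign say nothing about which gene is more abundant, since they come from different probe sets, and only its change from array to array can be read. On the log2 scale ACT7 minus ACT11 was 0.51, 1.00 and 0.40 in wild type replicates 1 to 3 and -0.49 in wild type replicate 4. In bdl it was -0.20, -0.29 and -0.46. The difference was thus lower in the bdl arrays and in wild type 4 than in wild type replicates 1 to 3. This pair was chosen after its values were seen and carries no test.

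ACT3, a pollen actin in the adult plant, separated the wild-type arrays more than the genotypes. Its intensity was 380, 364, 164 and 234 in the wild-type arrays and 206, 175 and 213 in the bdl arrays. Wild type 1 and 2 were the highest arrays, wild type 3 was the lowest of all, and the bdl arrays lay between wild type 3 and wild type 4. The SD was 0.57 on the log2 scale in wild type and 0.15 in bdl. The log2 difference was -0.45 ± 0.31 (SE; 95% interval -1.18 to 0.27; limma, adjusted p = 0.701). It was -0.69 without wild type replicate 3 (limma, adjusted p = 0.397) and -0.29 without wild type replicate 1, the ends of its range on leaving out 1 array, and not called in either.

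ACT1, the sister of ACT3, did not follow it. Intensities of 19.8, 30.4, 33.0 and 39.9 were measured in wild type and 27.7, 45.3 and 28.7 in bdl. The array with the highest ACT3, wild type 1, had the lowest ACT1. The ACT1 log2 difference was 0.15 ± 0.29 (SE; 95% interval -0.53 to 0.82; limma, adjusted p = 0.914), and it was -0.05 without wild type replicate 1, -0.08 without bdl replicate 2 and 0.29 without wild type replicate 4.

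ACT12 and ACT4, the pair of late pollen actins, had low signals. ACT12 had intensities of 7.59, 8.19, 4.36 and 10.8 in wild type and 4.63, 3.47 and 7.23 in bdl. These span a factor of 3.10, the widest range in the family, with wild type 4 at the top and bdl 2 at the bottom. The ACT12 log2 difference was -0.59 ± 0.36 (SE; 95% interval -1.42 to 0.24; limma, adjusted p = 0.650), the greatest negative value of the 8. Between the lowest and highest value on leaving out 1 array, it ran from -0.87 (without bdl replicate 3) to -0.35 (without bdl replicate 2). The mean of ACT4 lay under the 25th percentile of all genes, a level that is not known to exceed background. ACT4 had intensities of 2.51, 3.57, 3.46 and 6.02 in wild type and 2.95, 4.13 and 3.03 in bdl, with wild type 4 again the highest array. The ACT4 log2 difference was -0.15 ± 0.31 (SE; 95% interval -0.86 to 0.56; limma, adjusted p = 0.914), and it was 0.08 without wild type replicate 4.

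For 5 of the 8 genes (ACT1, ACT2, ACT4, ACT7 and ACT8) the 95% interval of the difference, not adjusted for the number of genes, lay inside a 2-fold change in either direction. ACT4 had a level not known to exceed background, so its interval bounds the signal and may not bound the transcript. For ACT3, ACT11 and ACT12 the interval reached past 2-fold on 1 side. With these SEs, a log2 difference of 0.92 would have been needed for a call of ACT7, 1.03 for ACT2 and 1.31 for ACT8. Among the reproductive genes it ran from 1.42 for ACT11 to 1.86 for ACT12. Smaller changes of an actin gene could not have been called on these arrays.

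**Figure D2:**
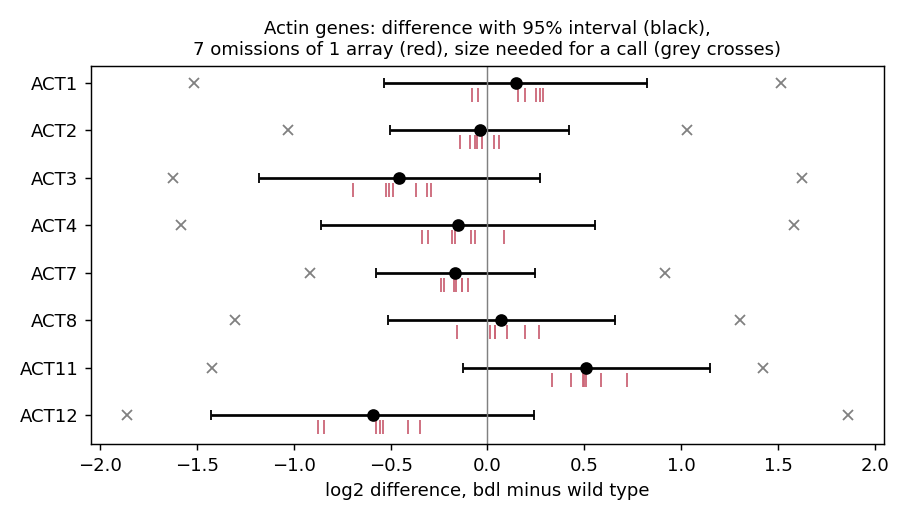
Log2 difference between bdl and wild type for each actin gene (black point) with its 95% interval, the 7 values on leaving out 1 array (red ticks) and the size that would have been called (grey crosses). All 8 intervals include 0, from -0.59 for ACT12 to 0.51 for ACT11, and no value reaches a cross.

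The spread between arrays of 1 genotype differed within the family. The within-genotype SD was 0.14 for ACT7, 0.21 for ACT2 and 0.33 for ACT8. It was 0.38 to 0.54 for the 5 reproductive actins, with ACT12 the highest, beside a median of 0.36 over all genes. ACT7 and ACT2 were thus below that median by their position (the 5.87 and 17.7 percentiles), ACT8 was near it (44.8), and the reproductive actins lay above it (53.6 to 75.8). Over all 7 arrays the range was 1.33-fold for ACT7, 1.52-fold for ACT2 and 1.80-fold for ACT8. The reproductive genes spanned 2.29-fold (ACT1 and ACT11) to 3.10-fold (ACT12).

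Sister genes did not have the most similar profiles. Likeness was measured as the root mean square difference of log2 values over the 7 arrays after centring each gene on its own mean, for all 28 pairs. The most alike were ACT1 and ACT4, at 0.22, and the least alike ACT3 and ACT11, at 0.75. Of the sister pairs, ACT2 and ACT8 ranked 7 at 0.37, ACT4 and ACT12 ranked 22 at 0.58, and ACT1 and ACT3 ranked 25 at 0.72. A low value is easier to reach for genes that vary little, such as ACT2 and ACT7 (rank 4, 0.27). Among all probe sets, those closest to ACT12, the actin gene with the widest range, were AT5G64980 at 0.15, RABG3d at 0.16 and AT2G40935 at 0.17. RABG3d is a Rab GTPase gene, and each value is over 7 arrays. As the smallest values among all probe sets, they were picked for being low and cannot be set against those of the sister pairs. A link of these genes with ACT12 was not tested.

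Some reproductive actins, and in part the vegetative ACT2, were high on the arrays where pollen markers were high. The pollen marker mean was 1.99, 3.31, 2.19 and 5.08 in wild type replicates 1 to 4 and 2.09, 3.59 and 1.95 in bdl replicates 1 to 3. Its 3 highest arrays, wild type 4, bdl 2 and wild type 2, were also the 3 highest for ACT4. Wild type 4 and bdl 2 were the top arrays for ACT1, and wild type 4 was the top array for ACT12, where bdl 2 was the lowest. ACT11 and ACT3 did not follow the pollen order. ACT11 ranked 2 in wild type 4 and 4 in bdl 2, and was lowest in wild type 2. ACT3 ranked 3 in wild type 4, 2 in wild type 2 and 6 in bdl 2. The vegetative ACT2 ranked 1 in wild type 4, 3 in wild type 2 and 4 in bdl 2. ACT8 ranked 1 in bdl 2, but 5 in wild type 2 and 6 in wild type 4. ACT7 ranked 1 in wild type 2, 6 in wild type 4 and 7 in bdl 2. VGD1, a pollen pectin methylesterase gene, had an intensity of 422 in wild type 4 and 9.88 to 174 in the other wild-type arrays. All 20 pollen genes had a negative log2 difference, beside 14398 of all 27826 genes, and none was called. The median was -0.51, and 3 of the 20 lay under the 25th percentile. The pollen mean lay within the bdl range in wild type 1 to 3 and above it in wild type 4 alone. The 20 signs are therefore not independent and carry no test of genotype. With the pollen mean as a covariate the log2 difference was 0.05 for ACT4, 0.31 for ACT1, -0.52 for ACT12, -0.49 for ACT3 and 0.59 for ACT11, and none was called. Averaged after centring each gene, the 5 reproductive actins were at 0.46 in wild type 4 but at -0.07 in bdl 2, the array with the second highest pollen mean. The vegetative actins were at -0.01 and 0.10 on those arrays. In wild type 4 that mean joins ACT2 at 0.32 with ACT7 at -0.15 and ACT8 at -0.21. In bdl 2 it joins ACT8 at 0.50 with ACT2 at 0.03 and ACT7 at -0.22.

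**Figure D3:**
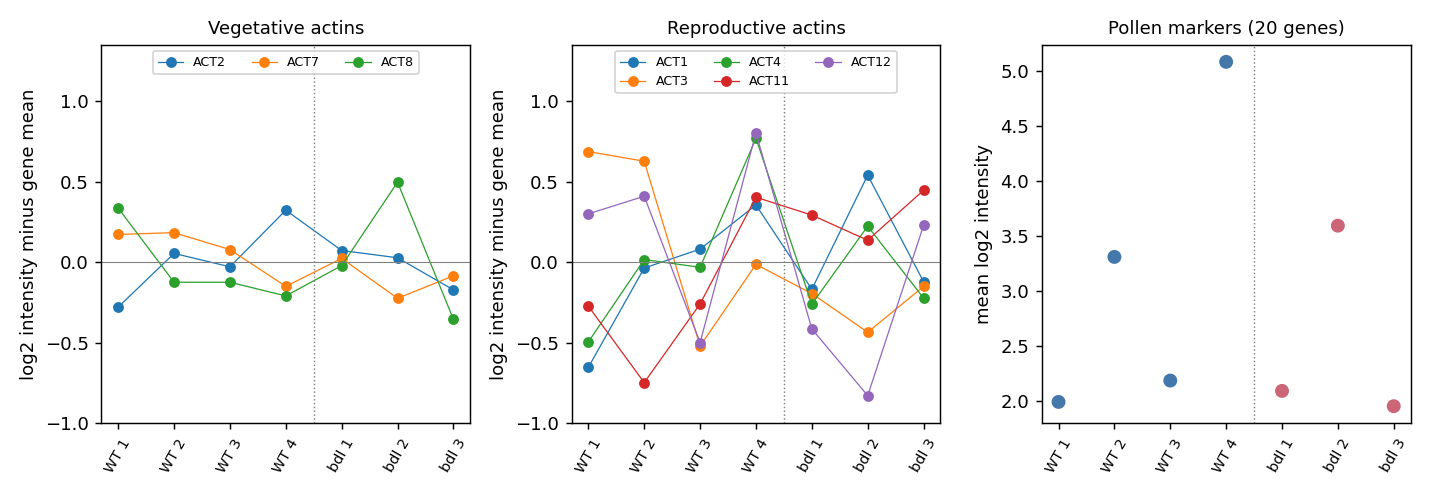
Log2 intensity of each actin gene minus its own mean over the 7 arrays, for the vegetative (left) and reproductive (middle) genes, and the mean log2 intensity of 20 pollen marker genes (right), by array; lines only join the points of a gene. The vegetative genes stay between -0.35 and 0.50 of their means. ACT12, ACT4 and the vegetative ACT2 reach their highest values in wild type 4, where the pollen mean is 5.08.

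Beside the actins themselves, 91 genes of actin-binding and actin-related proteins were examined, and 1 of them was called, where 1.76% of all genes were called. That share is no result about the group. The called gene, ADF9, rose in bdl. ADF9 belongs to the actin depolymerizing factors, and in vitro it is known to bundle filaments rather than to sever them. Its intensity was 4.59, 6.08, 9.24 and 19.3 in wild type and 96.7, 55.6 and 54.2 in bdl. All 3 bdl arrays exceeded every wild-type array, and wild type 4 was the highest of its group. The geometric means were 8.40 and 66.3, which gives a log2 difference of 2.98 ± 0.48 (SE; limma, adjusted p = 0.0228). The call was lost when wild type replicate 2 or 3 or any 1 of the bdl replicates was left out (limma, adjusted p = 0.0649 to 0.0985), while the difference stayed between 2.69 and 3.38 over the 7 omissions.

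The other 13 members of the group of actin depolymerizing factors, CAP1 and AIP1 loci did not pass, and the median of all 14 was 0.15. ADF3 had geometric means of 724 and 683, with a log2 difference of -0.09. ADF7 and ADF10, known from pollen, had differences of -0.63 ± 0.781 and -0.07 ± 0.915 (SE). Wild type 4 was the highest array for both, with intensities of 21.8 and 34.7. The other wild-type arrays had 2.5 to 3.4 for ADF7 and 3.3 to 3.9 for ADF10. The next highest array was bdl 2, at 6.6 and 15.6. None of the 5 profilin genes, whose proteins bind actin monomers, passed. PRF1, PFN2 and PRF3 differed by 0.05, 0.03 and -0.12 on the log2 scale, and PRF5, with the smallest p in this list, by 0.42 ± 0.38 (SE; limma, adjusted p = 0.788).

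Filament nucleators did not pass either. Of 16 formins, which start and extend unbranched filaments, 0 passed and the median log2 difference was 0.13. FH6 came closest. Its intensity was 26.2, 33.6, 17.6 and 12.7 in wild type and 64.0, 44.9 and 57.0 in bdl, without overlap. The FH6 log2 difference was 1.38 ± 0.35 (SE; limma, adjusted p = 0.127). The 9 genes for subunits of the ARP2/3 complex, which nucleates branches on filaments, had a median of -0.07, with ARPC4 at -0.57 (limma, adjusted p = 0.583). The 9 genes of the SCAR/WAVE activator complex and SPIKE1 had a median of 0.14, with SCAR2 at 0.95 (limma, adjusted p = 0.480), or 0.61 without bdl replicate 1 and 0.62 without wild type replicate 4.

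Genes for bundling, capping and motor proteins gave no call. Of 12 villin, fimbrin and capping protein genes the median was 0.14. VLN5, a villin known from pollen tubes, had intensities of 8.20, 5.46, 5.51 and 4.31 in wild type and 11.7, 8.88 and 17.0 in bdl. Its log2 difference was 1.08 ± 0.30 (SE; limma, adjusted p = 0.173). The bdl arrays of VLN5 lay above the wild-type arrays, and the pollen marker mean was 1.95 to 3.59 in bdl and 1.99 to 5.08 in wild type. Of 17 myosins the median was -0.12. ATM2, a class VIII myosin, had intensities of 89.8, 132, 132 and 87.3 in wild type and 171, 244 and 184 in bdl, also without overlap, and a log2 difference of 0.87 ± 0.24 (SE; limma, adjusted p = 0.183). Among 6 further actin-related proteins (ARP4 to ARP9) the median was 0.18 with ARP6, a subunit of the SWR1 chromatin complex, at 0.53. The 3 actin-like loci ACT9, AT2G42100 and AT2G42170 had differences of -0.10 to 0.12.

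Over all 91 genes, 1 was called and 8 had no overlap between the genotypes, beside 1.76% called and 11.2% without overlap among all genes. Of the 91 differences, 53 were positive and 38 negative, with a median of 0.07. Among all genes 13428 were positive and 14398 negative, with a median of -0.01. The split of signs was not tested. Without adjustment, 7 of the 91 had p under 0.05 (limma), beside 2978 of all 27826 genes.

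**Figure D4:**
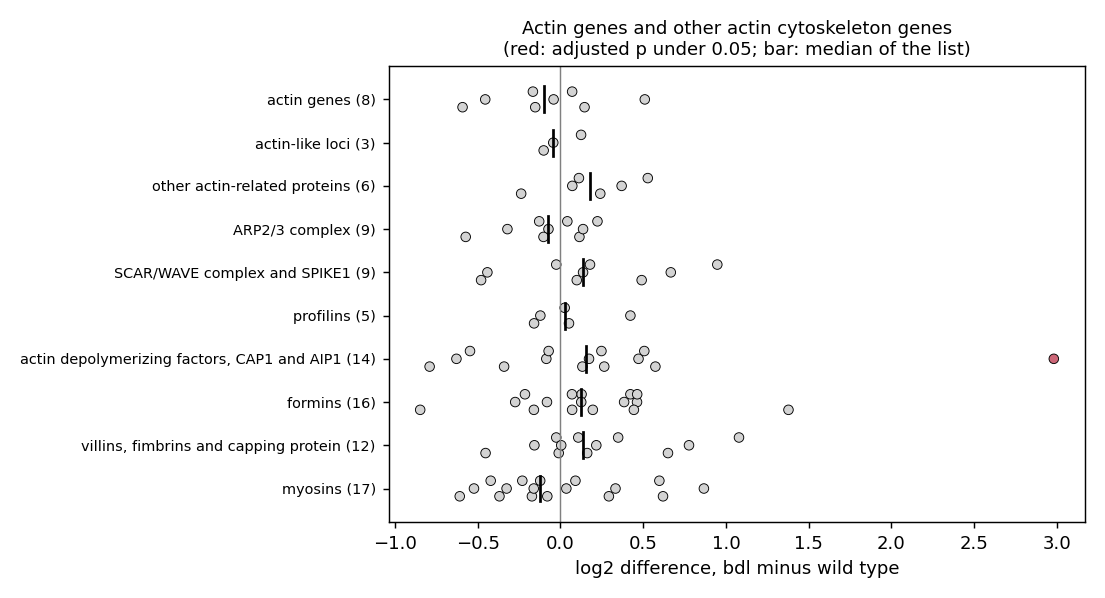
Log2 difference between bdl and wild type for the 8 actin genes and 91 other genes of the actin cytoskeleton by group, with group sizes in parentheses; red marks an adjusted p under 0.05 and black bars are group medians. ADF9 at 2.98 is the red point, and the actin genes lie between -0.59 and 0.51.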

How the data were processed

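The authors deposited 1 table of intensity values on a linear scale, with a row per probe set and a column per array. RMA is named, without version, in the submitters' processing notes; neither the probe definition nor the genome build is given in the sources used here. Log2 was taken with no pseudocount and no further scaling. The comparison of all 7 arrays used limma 3.58.1 (R 4.3.3; lmFit, then eBayes; 2-sided) with a term for genotype, with adjustment over 27826 probe sets, after the procedure had been tested on simulated data. Symbols came from RefSeq (assembly TAIR10.1). The size needed for a call is the SE times the t value at the greatest unadjusted p that was called. Members and lists were chosen with earlier results of these data known. From each list of actin cytoskeleton genes the called members, or the member with the smallest p, are named, and from each marker list the gene with the highest mean. ADF3, ADF7, ADF10, PRF1, PFN2, PRF3, ACT9, AT2G42100, ESR1, HB-3, ATML1, WOX8, LEC1, TT1, TT2 and STK were added after their values were seen. Intervals are 95% intervals. Figures were drawn with matplotlib 3.10.9.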

Additional observations from a re-analysis of the deposited data

Results flagged for a closer look

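In 31 checks of the 4 wild-type arrays, 1 value stood apart, where chance alone flags about 1 in 20. Wild type replicate 1 had an ACT8 level of 8.931 (log2 intensity), and replicates 2 to 4 had 8.39 to 8.47. With 3 arrays, bdl could not be checked in this way. The genes added after their values were seen were not checked on their own. Among them, ADF7 and ADF10 had 4.445 and 5.117 (log2) in wild type replicate 4. Replicates 1 to 3 had 1.325 to 1.786 for ADF7 and 1.727 to 1.959 for ADF10. ATML1 had 7.636 in wild type replicate 3 and 7.793 to 7.799 in the other wild-type arrays. These values also lay apart from the rest of their group.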

How the results depend on the processing

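None of the 8 actin genes was called in any of the 17 alternatives (other scalings, filters on dim genes, another variance model, array weights, a pseudocount of 1, the replicate number as a block, the pollen mean as a covariate, and leaving out each array). In 123 of 133 fits the sign stayed, and the smallest adjusted p was 0.274 (limma). The filters and the other variance model leave the difference itself unchanged, so the sign could not turn in those fits. With the replicate block, wild type replicate 4 is alone in its block, so the difference equals the one without that array. ACT4 fell under the filter at the 25th percentile and ACT12 under that at the 50th, so they have no value there. The sign turned for ACT2 with the replicate block (0.060) and with the pollen covariate (0.043), and for ACT4 likewise (0.083 and 0.049). On leaving out 1 array, ACT1 ran from -0.082 to 0.286, ACT2 from -0.14 to 0.06, ACT4 from -0.338 to 0.083 and ACT8 from -0.157 to 0.268; AT2G42170 ran from -0.048 to 0.23 and PRF5 from -0.002 to 0.70. The cause was not tested. The count of called cytoskeleton genes was 0 to 1 on leaving out 1 array. The count of all called genes, 490, was 278 to 374 on leaving out 1 array (281, 278 and 299 without bdl replicate 1, 2 and 3), with fewer arrays, and 188 with the replicate block, where IAA12 lost its call (1.58; limma, adjusted p = 0.0689). Same-numbered arrays correlated at 0.02, 0.08 and 0.03 in their deviations across genes, so the numbers were not taken as pairs, although each array correlated best with its own number. The number of arrays and the unknown background limit what could be seen for ACT4 and ACT12.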
